A study of Mus musculus with 3 samples.

Results

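Within the bone marrow population sorted as LMPP (lymphoid-primed multipotent progenitors), a set of cells with a high count of Dntt transcripts and few transcripts of myeloid granule genes was described. The cells came from C57BL/6J mice, and the labels give no treatment, age or sex and do not say how many animals were used. Each of the sorted populations was captured in 1 droplet library of the 10x Chromium 3-prime v2 chemistry. LMPP were gated cKit+ Sca1+ Flt3+ IL7Ra- B220-. CLP (common lymphoid progenitors) were gated cKit+ Sca1+ IL7Ra+ B220- with Flt3 positive or low, and pro-B cells cKit+ Sca1- Flt3- IL7Ra+ B220+. After removal of barcodes with under 500 genes or over 10% mitochondrial counts, the libraries had 579 cells (LMPP), 948 (CLP) and 1106 (pro-B). They held 4014657, 5967352 and 7367156 unique molecular identifiers (UMIs, counts of captured transcripts). Each LMPP cell counted as Dntt-high if it held 3 or more Dntt UMIs, 2 or fewer UMIs of Prtn3 and Mpo together, and under 8 UMIs of Irf8. This rule gave 124 Dntt-high cells of the 579 LMPP and of the 2633 cells of the series.

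Dntt encodes terminal deoxynucleotidyl transferase, the template-independent polymerase that adds nucleotides at the junctions of rearranging antigen receptor genes. It is transcribed in early lymphoid progenitors before they are committed to the B or T lineage, and it is widely used as a sign of lymphoid priming. LMPP retain myeloid and lymphoid potential while having largely lost megakaryocyte and erythroid potential. Prtn3 and Mpo encode granule enzymes of neutrophil and monocyte precursors, and Irf8 is a transcription factor of dendritic and monocyte precursors and of B cells. Ccr9 is the receptor for the chemokine CCL25 and takes part in the entry of progenitors into the thymus. Notch1 is the receptor that starts the T lineage programme, and Satb1 is a chromatin organiser of lymphoid development.

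The starts of 3 genes are shown because they belong to the gene that defines the set and to those with the highest ratios against depth-matched other LMPP cells among the abundant genes, Ccr9 and Gria2. Each line gives the 250 bases before the start annotated by RefSeq (GRCm38.p6), with the motif CANNTG in capitals. This hexamer is the E-box, the recognition element of E proteins, a family of transcription factors active in lymphoid progenitors. The windows lie at chr19:41029025-41029274 on the plus strand (Dntt), chr9:123766961-123767210 on the plus strand (Ccr9) and chr3:80802836-80803085 on the minus strand (Gria2). The window of Ccr9 lies inside the span given for this gene below, which is from a different annotation (GENCODE M21).
Dntt: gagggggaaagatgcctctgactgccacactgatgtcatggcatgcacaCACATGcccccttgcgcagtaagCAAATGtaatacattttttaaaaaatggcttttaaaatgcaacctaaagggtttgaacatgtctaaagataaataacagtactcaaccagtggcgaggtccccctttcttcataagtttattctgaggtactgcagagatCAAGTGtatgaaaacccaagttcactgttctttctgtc
Ccr9: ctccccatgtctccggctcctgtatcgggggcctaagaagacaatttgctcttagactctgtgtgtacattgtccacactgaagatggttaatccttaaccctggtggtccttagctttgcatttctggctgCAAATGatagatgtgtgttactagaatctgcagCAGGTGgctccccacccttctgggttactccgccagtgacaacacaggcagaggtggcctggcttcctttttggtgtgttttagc
Gria2: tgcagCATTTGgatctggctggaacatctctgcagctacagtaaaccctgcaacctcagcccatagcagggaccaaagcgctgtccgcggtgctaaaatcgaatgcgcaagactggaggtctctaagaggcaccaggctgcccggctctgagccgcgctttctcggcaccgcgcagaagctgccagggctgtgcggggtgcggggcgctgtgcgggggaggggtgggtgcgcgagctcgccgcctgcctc
The window of Dntt held 3 E-boxes, that of Ccr9 held 2 and that of Gria2 held 1. The motif reads the same on both strands. Among 32851 windows of the same length, 66.2% held an E-box, 31.8% held 2 or more and 12.2% held 3 or more, so a match in one window is common. A match describes the letters of the window and is not evidence of a bound site.

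The values that chose the cells are given as a description only. Dntt ranged from 3 to 32 UMIs per cell with a median of 6, and the 124 cells held 978 Dntt UMIs. At the Dntt limit, 19 cells lay just inside with 3 UMIs and 33 cells lay just outside with 2 UMIs under the other limits. At the limit on Prtn3 and Mpo, 28 cells lay just inside with 2 UMIs, and 22 cells with enough Dntt lay just outside with 3. No cell with enough Dntt and few Prtn3 and Mpo UMIs held 8 or 9 Irf8 UMIs, and 3 of the Dntt-high cells held 6 or 7. The boundaries with the Dntt-low and the Prtn3 or Mpo cells therefore cross a continuous distribution. In all, 185 of the 579 LMPP cells had 3 or more Dntt UMIs, of which 56 were left out for Prtn3 and Mpo and 5 for Irf8.

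**Figure D1:**
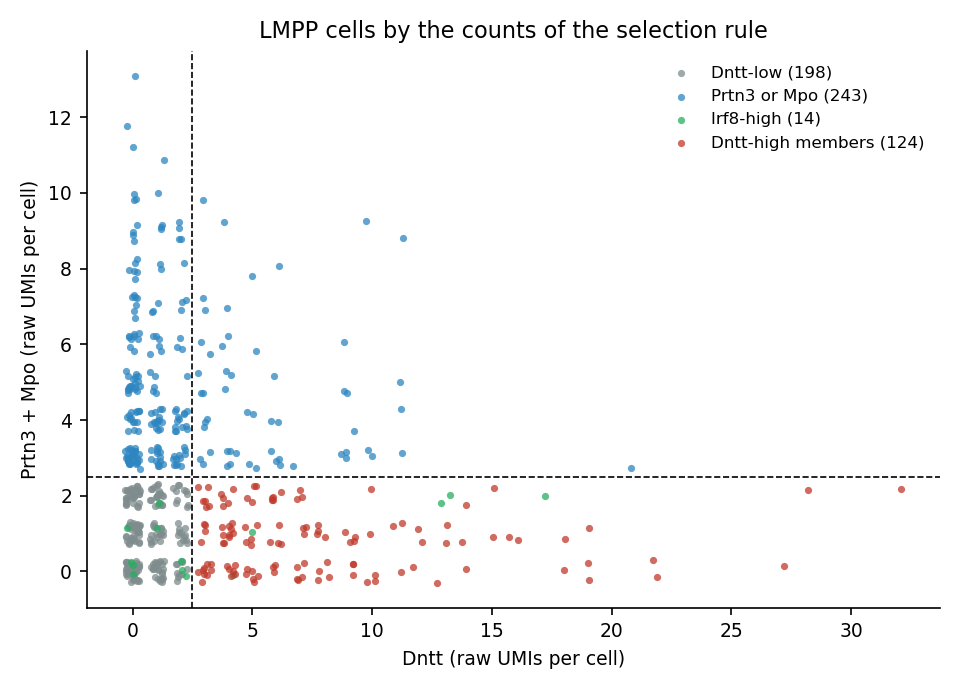
Each point is 1 of the 579 LMPP cells, placed by its raw Dntt UMIs (x axis) and its summed Prtn3 and Mpo UMIs (y axis), with a small random offset so that points with equal counts can be seen; dashed lines are the limits of the rule. The 124 Dntt-high cells fill the lower right, from 3 to 32 Dntt UMIs, next to 198 Dntt-low cells and 243 cells with Prtn3 or Mpo, and of the 15 cells with 8 or more Irf8 UMIs 14 are drawn as such and 1 among the Prtn3 or Mpo cells.

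Depth was matched because a cell with more UMIs more easily reaches a count of 3. Dntt-high cells had a median of 7378.5 UMIs and 2122 genes, against 6707 UMIs in the other 455 LMPP cells and 5466.5 in the 198 Dntt-low cells. Each Dntt-high cell was paired with the unused cell nearest in total UMIs, once among all other LMPP cells and once among the Dntt-low cells, which met the same limits on Prtn3, Mpo and Irf8. The paired other LMPP cells had a median of 7377.5 UMIs and a sum of 905941, against 906101 in the Dntt-high cells. Of these 124 paired cells 81 held Prtn3 or Mpo above the limit, 39 were Dntt-low and 4 were high in Irf8, and 15 of the 81 held 3 or more Dntt UMIs. The Dntt-low cells had few deep cells, so their pairs reached a median of 6438 UMIs and a sum of 839188, and 93 of the 124 pairs lay within 10% of each other. Both comparisons use the same Dntt-high cells. Levels are CPM, the UMIs of a gene in 1000000 UMIs summed over a set, with exact Poisson intervals, and ratios carry exact conditional intervals. All these 95% intervals cover counting error only. Because each population was captured once, differences have no replicate check, and neither a test nor a p-value is given.

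The libraries shared few barcode sequences: 3 between LMPP and CLP, 1 between LMPP and pro-B and 2 between CLP and pro-B. Of these, 1 was a Dntt-high cell, the one shared with pro-B. In the LMPP library it held 9 Dntt UMIs and 1 of Cd79b, and none of Ebf1, Rag1, Rag2, Cd79a, Blnk or Pax5. Values without shared barcodes are given beside the counts of genes. The doublet caller marked 5 of the Dntt-high cells, 6 of the paired other LMPP cells and 6 of the paired Dntt-low cells. The share of UMIs from mitochondrial genes was 2.62% in the Dntt-high cells and 2.68% and 2.71% in the 2 paired sets, and that from ribosomal protein genes was 44.3%, 43.8% and 43.2%.

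Nearly all abundant transcripts lay within 2-fold between Dntt-high and other LMPP cells. Dntt-high cells held more transcripts of a group led by Ccr9, Gria2, Wfdc18 and Bfsp2, and fewer transcripts of the stem cell regulators Hlf and Mecom. Against paired other LMPP cells, 2495 genes reached 50 CPM in at least 1 set, of which 29 (1.16%) were 2-fold or more higher in the Dntt-high cells and 15 (0.601%) were 2-fold or more lower. The remaining 98.2% lay within 2-fold, with a median log2 ratio of -0.01 over the genes compared. Against paired Dntt-low cells the counts were 34 higher (1.33%) and 21 lower (0.822%) of 2556 genes. The genes of the rule itself were left out of these counts. Without shared barcodes the counts were 26 higher and 16 lower against other LMPP, and 32 higher and 21 lower against Dntt-low cells. The shares of genes past 2-fold are small, and counting error bears on which genes pass. The interval lay wholly beyond 2-fold for 11 of the 29 higher and 1 of the 15 lower genes against other LMPP, and for 7 of 34 and 2 of 21 against Dntt-low cells, with no adjustment for the number of genes compared. The other genes that passed were not separated from the 2-fold limit, as for Cst7, which encodes the protease inhibitor cystatin F (log2 ratio 1.03, interval 0.31 to 1.78).

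**Figure D2:**
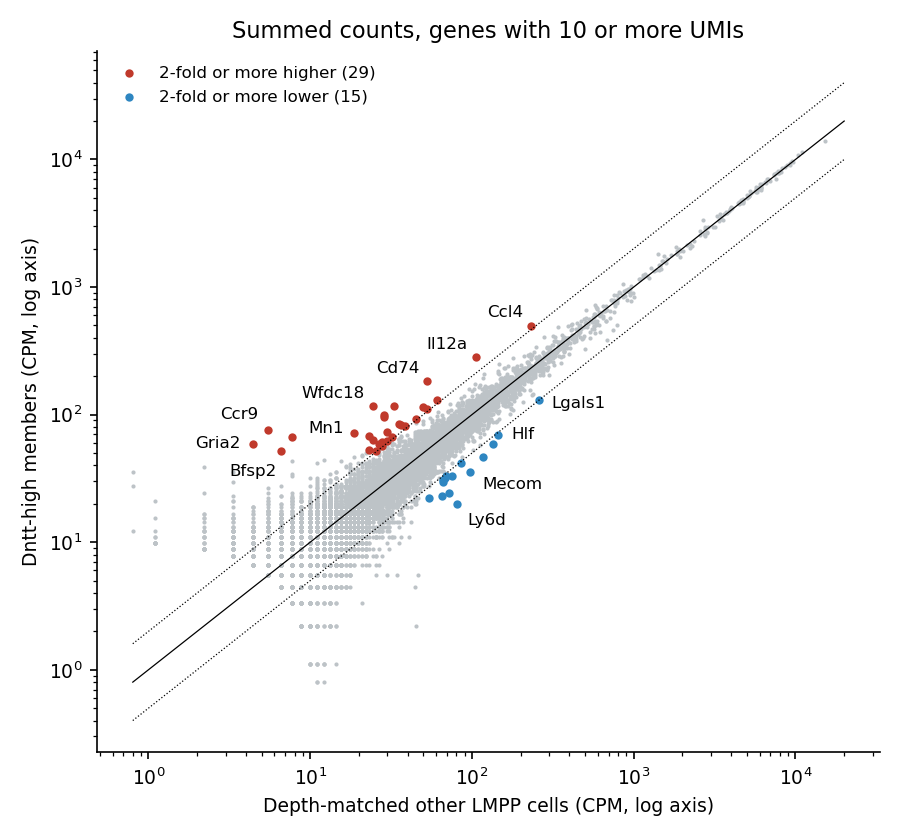
Each point is a gene with 10 or more UMIs over both sets, placed by its CPM in the 124 paired other LMPP cells (x axis, log scale) and in the 124 Dntt-high cells (y axis, log scale); a set without a UMI is drawn at the left or lower edge, the solid line marks equal levels and the dotted lines a 2-fold difference. The 29 higher genes (red) and 15 lower genes (blue) stand at the edges of a narrow band, with Ccr9 and Gria2 farthest above the line among the red points, followed by the unnamed gene model Gm19331 and Bfsp2.

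The 3 genes that mark the label besides Dntt, namely Ccr9, Notch1 and Satb1, were all at higher levels in the Dntt-high cells than in either paired set. Ccr9 (chr9:123678439-123784330, plus strand) had a lowest, median and highest count of 0, 0 and 9 UMIs per cell and was detected in 26 of the 124 cells. The paired other LMPP cells held 5 Ccr9 UMIs in 5 cells. The paired Dntt-low cells held 25 UMIs in 11 cells, and their ranges overlapped that of the Dntt-high cells, most of which had no Ccr9 UMI. The 5 cells with the highest counts held 43.5% of the Ccr9 UMIs of Dntt-high cells and 76% of those of paired Dntt-low cells. As levels, Ccr9 stood at 76.2 CPM in Dntt-high cells, 5.52 CPM in paired other LMPP and 29.8 CPM in paired Dntt-low cells. Its log2 ratio was 3.79 (2.49 to 5.45) against other LMPP and 1.35 (0.68 to 2.08) against Dntt-low cells. The first ratio depended on which cells were paired: all 455 other LMPP cells together stood at 20.3 CPM, and the log2 ratio against them was 1.91. Every cell was also thinned to 3000 UMIs, which left 423 other LMPP and 168 Dntt-low cells, compared without pairing. The log2 ratio of Ccr9 was then 1.59 against other LMPP and 0.70 against Dntt-low cells.

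Notch1 (chr2:26457903-26516663, minus strand) was detected in 76 Dntt-high cells, with a median of 1 UMI and a highest count of 4. In paired other LMPP and Dntt-low cells it was detected in 53 and 44 cells, and the median in both was 0. The level of Notch1 was 135 CPM against 85.0 and 65.5 CPM, log2 ratios of 0.66 (0.24 to 1.09) and 1.04 (0.57 to 1.53). Satb1 (chr17:51736187-51833290, minus strand) had a median of 1 UMI in all 3 sets, and its level was 170 CPM against 111 and 126 CPM. Its log2 ratios were 0.61 (0.24 to 0.98) and 0.43 (0.06 to 0.80). For all 3 markers the intervals excluded 0 in both comparisons. As the Dntt-high cells were chosen with earlier results of these data known, this is a description and no separate support for the label.

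At an equal depth of 3000 UMIs per cell, Ccr9 was detected in 12.3% of Dntt-high cells (exact Clopper-Pearson interval 7.05% to 19.5%), 0.82% of paired other LMPP and 4.10% of paired Dntt-low cells. In the pro-B library, which should lack the transcript, no cell of 853 thinned cells held it, and 0.09% did at full depth (median 5687.5 UMIs per cell). Notch1 was detected in 36.1% of thinned Dntt-high cells (27.6% to 45.2%) against 17.2% and 15.6% in the paired sets and 6.45% in pro-B cells. Satb1 was detected in 41.8% (32.9% to 51.1%) against 31.1% in each paired set. The intervals of Satb1 overlapped between sets, whereas those of Notch1 did not overlap with those of either paired set. At full depth the shares in Dntt-high cells were 20.97% for Ccr9, 61.3% for Notch1 and 63.7% for Satb1.

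Of the genes of the sort, Ly6a was lower in Dntt-high cells in both comparisons, Kit was lower against Dntt-low cells, and the other intervals of Kit and Flt3 included equal levels. Flt3, the cytokine receptor used in the gate, stood at 331 CPM in Dntt-high cells and at 290 and 287 CPM in paired other LMPP and Dntt-low cells. Kit, the receptor for stem cell factor, stood at 62.9, 86.1 and 93.0 CPM in the same order, and Ly6a, which encodes Sca1, at 82.8, 116 and 139 CPM. Il7r, the receptor chain whose surface form the LMPP gate excluded, stood at 5.52, 4.42 and 3.57 CPM, against 141 CPM in the CLP library.

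The leading genes after Ccr9 fell into those that are also abundant in CLP and those that are not. Gria2, a subunit of AMPA-type glutamate receptors (chr3:80681450-80802835, minus strand), ranged from 0 to 9 UMIs per Dntt-high cell with a median of 0 and was detected in 20 of 124 cells. It was detected in 4 paired other LMPP cells and 7 paired Dntt-low cells, never above 1 UMI. The Gria2 level was 58.5 CPM in Dntt-high cells against 4.42 and 8.34 CPM, log2 ratios of 3.73 (2.29 to 5.66) and 2.81 (1.67 to 4.19). Against all 455 other LMPP cells, at 7.40 CPM, the first ratio was 2.98, and with thinned, unpaired cells the ratios were 2.69 and 1.81. In the 5 cells with the highest counts lay 52.8% of its UMIs. In CLP the level of Gria2 was 3.69 CPM.

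Wfdc18, which encodes a secreted protein with a four-disulfide core domain (chr11:83709015-83711348, plus strand), ranged from 0 to 7 UMIs with a median of 0 and was detected in 45 Dntt-high cells. It was detected in 15 paired other LMPP and 21 paired Dntt-low cells. Its level was 117 CPM against 24.3 and 40.5 CPM, log2 ratios of 2.27 (1.60 to 3.0) and 1.53 (0.96 to 2.13). Against thinned, unpaired other LMPP the log2 ratio of Wfdc18 was 1.58. All Dntt-low cells without pairing stood at 60.1 CPM for Wfdc18. The Dntt-high level of 117 CPM was less than 2-fold above that value, so passing 2-fold against Dntt-low cells depended on the pairing. The level of Wfdc18 in CLP was 8.71 CPM, below the Dntt-high cells and both paired sets. Tmem158, which encodes a transmembrane protein, showed the same order of sets, at 99.3 CPM in Dntt-high cells, 28.7 and 41.7 CPM in the paired sets and 6.03 CPM in CLP.

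Cd74, the invariant chain of MHC class II, ranged from 0 to 29 UMIs in Dntt-high cells with a median of 0. It was detected in 35 Dntt-high cells, 25 paired other LMPP cells and 35 paired Dntt-low cells. The Cd74 level was 183 CPM against 53.0 and 76.3 CPM, but 62.7% of the UMIs of Dntt-high cells lay in 5 cells, and the share of thinned cells with a UMI, 17.2%, was close to the 16.4% of Dntt-low cells. Against all 198 Dntt-low cells without pairing, the log2 ratio was 0.70 in place of 1.26. The higher Cd74 level thus came from a few cells with high counts, and not from more cells with a UMI than among Dntt-low cells. Ncf1, a cytosolic subunit of the NADPH oxidase, stood at 117 CPM against 33.1 and 35.8 CPM and was detected in 57 Dntt-high cells. Its UMIs were spread more evenly, with 19.8% in 5 cells. Ncf1 was not particular to the Dntt-high cells. It stood at 131 CPM (76.3 to 210) in the 15 LMPP cells high in Irf8. In the 56 LMPP cells with both Dntt and Prtn3 or Mpo it stood at 94.7 CPM (69.1 to 127).

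Other leading genes were higher still in the CLP library. Bfsp2, which encodes a beaded filament protein first known from the lens, stood at 51.9 CPM in Dntt-high cells, 6.62 and 9.53 CPM in the paired sets, 123 CPM in CLP and 722 CPM in pro-B cells. Myl10, a regulatory light chain of myosin, stood at 83.9 CPM against 35.3 and 29.8 CPM, with 357 CPM in CLP. Evl, a regulator of actin filaments of the Ena/VASP family, stood at 72.8 CPM against 29.8 and 17.9 CPM, with 135 CPM in CLP. These genes shared the order Dntt-low, Dntt-high and CLP, although CLP was a separate library, so the population and the droplet run cannot be told apart there. Clec12a, an inhibitory lectin receptor of myeloid and dendritic cells, stood at 60.7 CPM against 27.6 and 9.53 CPM, with 171 CPM in CLP. Its level was 239 CPM in the 15 LMPP cells high in Irf8. Cox6a2, a subunit of cytochrome c oxidase known from striated muscle and plasmacytoid dendritic cells, stood at 94.9 CPM against 55.2 and 10.7 CPM, with 476 CPM in CLP and 717 CPM in the 15 LMPP cells high in Irf8. Among cells with few cell cycle UMIs, its log2 ratio against other LMPP was 2.90 in place of 0.78, and without the cluster led by Ly6d it was 2.61. Ratios of further genes also moved by over 1.5 times. The few-cycle setting gave Bfsp2 1.64 in place of 2.97 and Evl 3.03 in place of 1.29 against other LMPP. Thinning without pairing gave Clec12a 4.71 in place of 2.67 against Dntt-low cells. That value rests on 1 Clec12a UMI in 1 of 168 thinned Dntt-low cells. Ncf1 was 1.23 in place of 1.82 against all other LMPP cells.

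Genes of cytokine and receptor signalling were also among the higher ones. Il12a, the p35 subunit of interleukin 12, ranged from 0 to 8 UMIs with a median of 2 in Dntt-high cells and was detected in 96 of them, against medians of 0 and 55 and 54 detected cells in the paired sets. Its level was 283 CPM against 106 and 122 CPM, log2 ratios of 1.41 (1.07 to 1.77) and 1.22 (0.88 to 1.56), with 343 CPM in CLP. Il12a was evenly spread over the Dntt-high cells, with 12.9% of its UMIs in 5 cells. Lck, a Src-family kinase best known from T cells, stood at 96.0 CPM against 28.7 and 45.3 CPM and was detected in 59 Dntt-high cells, with 137 CPM in CLP. Against all other LMPP cells the log2 ratio of Lck was 0.99 in place of 1.74. Sstr2, a somatostatin receptor, had 75 UMIs in Dntt-high cells against 33 and 30, and Xrcc6, the Ku70 subunit that binds DNA ends in non-homologous end joining, had 101 against 48 and 38. Ccl4, an inflammatory chemokine, stood at 498 CPM against 233 CPM in paired other LMPP, but at 452 CPM in paired Dntt-low cells. Its log2 ratio against thinned, unpaired other LMPP was 0.41 in place of 1.10.

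In both comparisons 20 genes were 2-fold or more higher, namely 20 of the 29 found against other LMPP and 20 of the 34 found against Dntt-low cells, and 8 were lower, of 15 and of 21. As the Dntt-high cells are shared between the comparisons, this overlap is no independent evidence. The 8 lower genes were Hlf, Mecom, Cd63, Rab38, Glul, Baz1a, Def8 and Sik1.

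**Figure D3:**
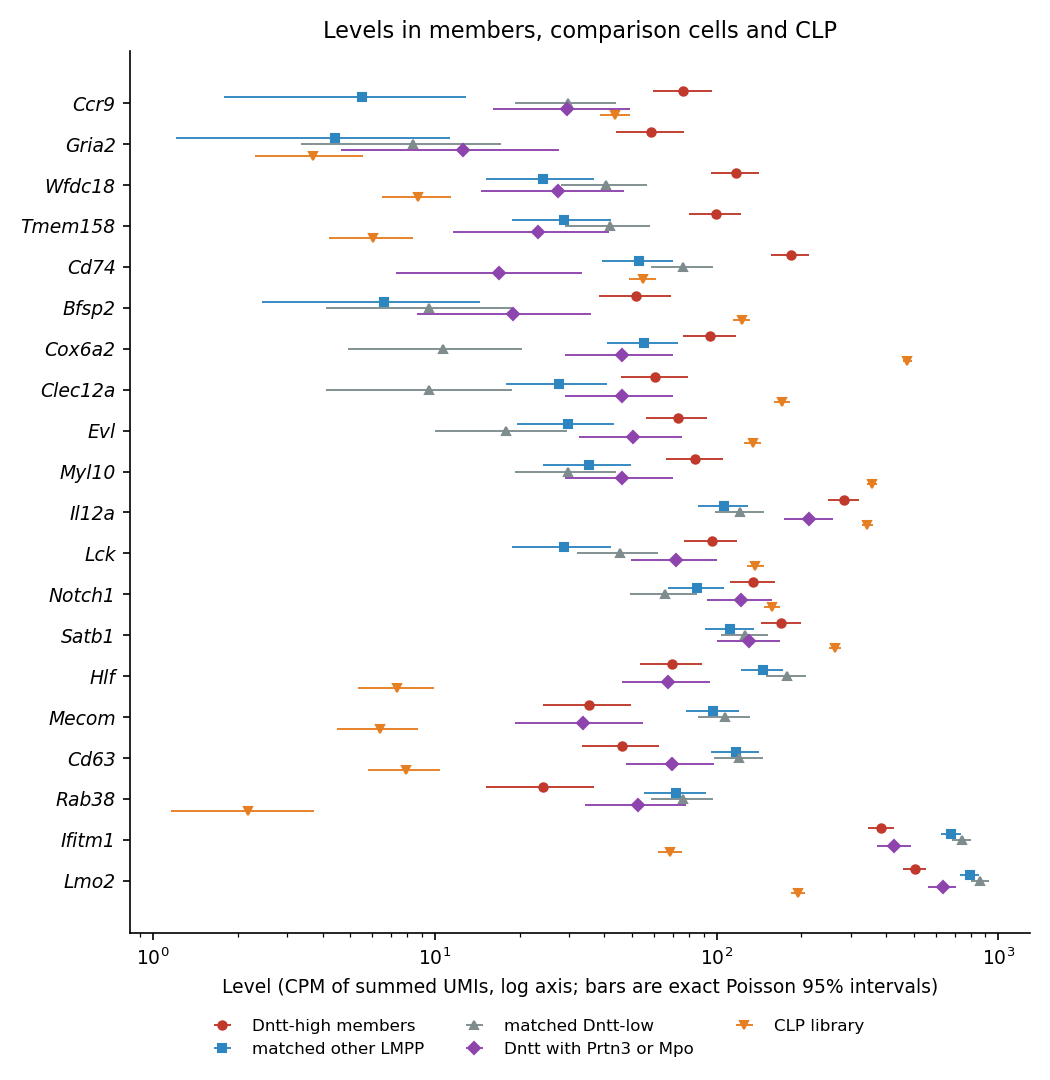
Levels of 20 genes in CPM of summed UMIs (x axis, log scale) with exact Poisson 95% intervals, in the 124 Dntt-high cells (red), the 124 paired other LMPP (blue), the 124 paired Dntt-low cells (grey), the 56 LMPP cells with both Dntt and Prtn3 or Mpo (purple) and the CLP library (orange). Gria2, Wfdc18, Tmem158 and Cd74 are highest in Dntt-high cells and lower in CLP, Bfsp2, Myl10, Evl and Clec12a are higher still in CLP, and Hlf, Mecom, Cd63 and Rab38 are lower in Dntt-high cells than in the paired sets and lowest in CLP.

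Hlf and Mecom were the stem cell genes of 50 CPM or more that passed 2-fold, and both were lower in the Dntt-high cells. Hlf, a transcription factor of haematopoietic stem cells (chr11:90336536-90390895, minus strand), ranged from 0 to 5 UMIs with a median of 0 and was detected in 34 Dntt-high cells. In paired other LMPP and paired Dntt-low cells its median was 1, its highest count 6, and it was detected in 74 and 75 cells. The Hlf level was 69.5 CPM against 146 and 178 CPM, log2 ratios of -1.07 (-1.52 to -0.62) and -1.35 (-1.80 to -0.92). In thinned cells Hlf was detected in 15.6% of Dntt-high cells (9.64% to 23.2%), 32.8% of paired other LMPP and 36.1% of paired Dntt-low cells, and in none of 853 pro-B cells.

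Mecom, a zinc finger transcription factor needed for stem cell maintenance (chr3:29951296-30548008, minus strand), was detected in 21 Dntt-high cells against 53 and 58. Its level was 35.3 CPM against 97.1 and 107 CPM, log2 ratios of -1.46 (-2.09 to -0.86) and -1.60 (-2.23 to -1.01). Procr, the endothelial protein C receptor and a further gene of the stem cell list, had few counts, with 7 UMIs against 22 and 30. In CLP, Hlf stood at 7.37 CPM and Mecom at 6.37 CPM.

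Outside that list, Cd63, a tetraspanin of late endosomes, stood at 46.4 CPM against 117 and 120 CPM, and Rab38, a small GTPase of lysosome-related organelles, at 24.3 CPM against 71.8 and 76.3 CPM. Glul, which encodes glutamine synthetase, stood at 58.5 CPM against 136 and 125 CPM. More abundant genes differed by less than 2-fold. Ifitm1, an interferon-induced transmembrane protein, had a median of 2 UMIs in Dntt-high cells and 4 in each paired set, at 383 CPM against 681 and 741 CPM. Lmo2, a LIM-domain cofactor of early haematopoiesis, stood at 504 CPM against 790 and 860 CPM. Their log2 ratios against other LMPP, -0.83 (-1.02 to -0.64) for Ifitm1 and -0.65 (-0.82 to -0.48) for Lmo2, excluded 0 within counting error.

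The direction of Ly6d depended on the comparison. It marks CLP that lean to the B lineage and stood at 873 CPM in CLP. In Dntt-high cells its level was 19.9 CPM, against 80.6 CPM in paired other LMPP (log2 ratio -2.02) and 1.19 CPM in paired Dntt-low cells (log2 ratio 4.06). Of the 218 Ly6d UMIs of the LMPP library, 191 lay in a cluster of 28 cells that held 13 of the 15 cells high in Irf8. Without that cluster the log2 ratio against other LMPP was 2.58, and among cells with few cell cycle UMIs it was 3.17.

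Gene lists were described by the number of their genes past 2-fold and their median log2 ratio, among genes with 10 or more UMIs over both sets. Over all 8901 such genes against paired other LMPP, 386 (4.34%) were 2-fold or more higher and 491 (5.52%) lower. Over the 8912 genes against paired Dntt-low cells, 415 (4.66%) were higher and 543 (6.09%) lower, with a median log2 ratio of -0.06. The median over all genes against other LMPP was within 0.01 of 0.

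The early lymphoid list had 15 measured genes of 18, of which 4 were 2-fold or more higher than in other LMPP (Ccr9, Rag2, Cnn3, Lax1) and 1 was lower (Ly6d), with a median log2 ratio of 0.35. Against Dntt-low cells 6 of 15 were higher (among them Ccr9, Notch1, Rag2, Ly6d and Cnn3), none was lower, and the median was 0.43. Ly6d passed there on 18 UMIs against 1. Rag2, the partner of Rag1 in the recombinase, rested on 12 UMIs, and Cnn3, an actin-binding calponin, stood at 92.7 CPM against 45.3 and 38.1 CPM. Lax1, an adaptor that dampens lymphocyte receptor signals, stood at 62.9 CPM against 24.3 and 34.6 CPM. The list was partly chosen for genes already known to differ in these data and contains the markers of the label.

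The stem and multipotent list had 18 measured genes of 22. Against other LMPP 4 were 2-fold or more lower (among them Hlf, Mecom and Procr), none was higher, and the median was -0.57. Against Dntt-low cells 5 were lower, with Gata2 added, and the median was -0.73. Per cell thinned to 3000 UMIs, the summed list had a median of 7 UMIs in Dntt-high cells and 11 in each paired set, and the ranges of 1 to 27, 0 to 29 and 3 to 31 UMIs overlapped widely. The megakaryocyte and erythroid list showed the same direction, with 3 of 7 measured genes lower against other LMPP (Pf4, Rab38, Muc13) and a median of -0.62. Pf4, a platelet chemokine, had 3 UMIs against 19 and 16 in the paired sets. Markers of erythroid cells summed to 11.04 CPM in Dntt-high cells against 50.8 and 47.7 CPM, mostly Hbb-bt, a beta globin, with 5 UMIs against 42 and 34. Their part in the median of the list was not tested.

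The myeloid list, which held no gene of the rule, was balanced, with 1 of 13 genes higher (Clec12a), 1 lower (Cd63) and a median of -0.07 against other LMPP. Cebpa, a transcription factor of granulocyte and monocyte development, had 30 UMIs against 36 and 33. The dendritic list had a median of 0.57 over 8 measured genes, with 1 higher (Siglech, on 9 against 4 UMIs), and of 0.85 over 7 genes against Dntt-low cells, with Cox6a2 and Mpeg1 higher. The median of 0.57 became -0.05 when cells were chosen by Dntt per 10000 UMIs. In the T and innate lymphoid list 2 of 7 were higher against other LMPP (Lck, Id2) and 1 lower (Gata3), with a median of 0.49. Against Dntt-low cells 2 of 8 were higher (Lck, Cd7) and 2 lower (Tcf7, Gata3), with a median of 0.45. Id2, an inhibitor of E proteins, turned between the comparisons on few counts, with 11 UMIs against 4 in other LMPP and 13 in Dntt-low cells.

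Cell cycle genes did not set the Dntt-high cells apart. The S phase list had a median log2 ratio of 0.11 against other LMPP and 0.00 against Dntt-low cells, and the G2/M list 0.17 and 0.09. In thinned cells, 40.2% of Dntt-high cells (31.4% to 49.4%) held 3 or more S phase UMIs, against 36.1% and 41.8% in the paired sets. For G2/M the shares were 5.74%, 6.56% and 6.56%. The glycolysis list had a median of -0.22 with 2 of 12 genes lower (Hk2, Pfkl), and the homing and adhesion list had 2 of 13 higher (Ccr7, Ccr9) and 2 lower (S1pr1, Itga6). In the MHC class II list Cd74 alone of 9 genes was 2-fold higher, with a median of 0.03. Medians against other LMPP were 0.38 for E and Id proteins (4 genes), 0.12 for interferon-stimulated genes (14 genes), -0.14 for immediate early genes (15 genes), 0.13 for chromatin and recombination (11 genes) and -0.05 for cell survival (7 genes). In these 5 lists 0 to 2 genes passed 2-fold upwards and none downwards. Cytokine receptors had a median within 0.01 of 0 over 15 genes. Among Notch receptors and targets, Hes1, a repressor induced by Notch, was higher on 25 UMIs against 6 in other LMPP, 64.0% of them in 5 cells. Against Dntt-low cells Hes1 did not pass 2-fold, and Notch1 alone of the 3 measured genes did.

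**Figure D4:**
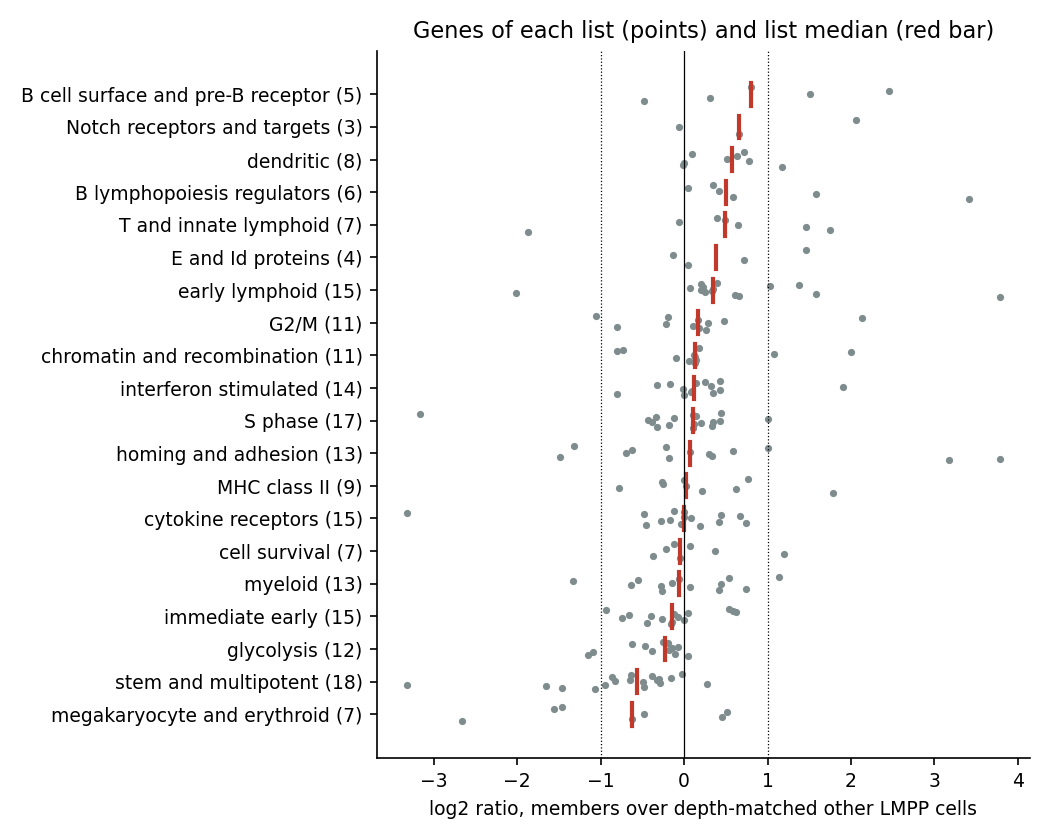
Each point is a gene of a list with 10 or more UMIs, placed by its log2 ratio of Dntt-high cells over paired other LMPP cells (x axis); list names give the number of genes, red bars the median, dotted lines a 2-fold difference and the vertical placement within a list has no meaning. The stem and multipotent list and the megakaryocyte and erythroid list lie to the left with medians of -0.57 and -0.62, and the lymphoid lists lie to the right with few genes past 2-fold.

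Of the markers of cells that the gate should exclude, those of stroma, mast cells and basophils, and granulocytes did not exceed the floor of 3 UMIs. This floor is 3.31 CPM in the Dntt-high cells. Stroma markers had no UMI in them, mast cell and basophil markers had 1, and granulocyte markers had 3. T and NK cell markers were above the floor, with 14 UMIs (15.5 CPM) in Dntt-high cells, 4 in paired other LMPP and 5 in paired Dntt-low cells. Of the 14 UMIs 9 were of Klrd1, which had 1 UMI in paired other LMPP. Cd3d had 2 against 1 and Cd4 had 3 against 2. The higher sum against other LMPP thus came mainly from 1 of these markers. Their part in the differences was not tested.

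Ebf1 and Rag1 were present in very few of the Dntt-high cells, while some other genes of the B lineage lists were more widely detected. At full depth Cd72, a B cell surface lectin, was detected in 49 of 124 Dntt-high cells, 32 paired other LMPP and 25 paired Dntt-low cells, and Cd79b, a chain of the B cell receptor complex, in 28, 24 and 20. Of the B lymphopoiesis regulators 2 of 6 measured genes of 12 were 2-fold or more higher in both comparisons (Ebf1, Ets1), with medians of 0.50 and 0.20. Of the genes of the B cell surface and the pre-B receptor 2 of 5 were higher against other LMPP (Blnk, Mzb1) and 3 of 4 against Dntt-low cells, with Cd72 added. These genes had few counts. Blnk had 20 UMIs against 7 and 1, with 70% of the 20 in 5 cells. Mzb1 had 11 against 2 in other LMPP, and Ets1 had 18 against 6 and 3. Ebf1 is the transcription factor that starts the B lineage programme. All 32 Ebf1 UMIs of the LMPP library lay in 6 of the Dntt-high cells. The counts were 19, 8, 2, 1, 1 and 1. None of the 455 other LMPP cells held an Ebf1 UMI, which allows a share of cells with an Ebf1 UMI of up to 0.659% (3 cells of 455), against 4.84% of Dntt-high cells (1.80% to 10.2%). The exact interval for the other LMPP cells reached 0.807%. These shares count cells with a UMI, and a cell without one may still express the gene. In the CLP library 540 of 948 cells, 57.0%, held Ebf1. All 8 Rag1 UMIs likewise lay in 5 of the Dntt-high cells, so that 9 of 124 cells (7.26%, 3.37% to 13.3%) held Ebf1 or Rag1, and none of the 9 was called a doublet. In CLP 224 of 948 cells held Rag1.

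The cell with 19 Ebf1 UMIs also held 5 UMIs of Cd79a, a chain of the B cell receptor complex, 7 of the adaptor Blnk, 2 of Rag1, 3 of Rag2, 3 of Vpreb2, which encodes a surrogate light chain, 1 of Il7r and 8 of Dntt, with no Ifitm1. The cell with 8 Ebf1 UMIs held 28 Dntt and 10 Flt3 UMIs and none of Cd79a, Blnk or Rag1. No Pax5 UMI, the factor that fixes B lineage identity, was found in any of the 9 cells. Ebf1 as a level of 35.3 CPM therefore describes single cells and not the set. Without the Ebf1 cells, 24 genes were higher and 16 lower against other LMPP, and 30 and 19 against Dntt-low cells.

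Within the limits on Prtn3, Mpo and Irf8, the leading genes followed Dntt in different ways. Cells were ordered by raw Dntt count into 100 cells with 0, 98 with 1 to 2, 55 with 3 to 5, 38 with 6 to 9 and 31 with 10 or more UMIs. Their median depth increased along this order, at 5126.5, 5625, 6664, 6723.5 and 8264 UMIs. Hlf stood at 229, 167, 104, 63.5 and 26.5 CPM along these classes and was detected in 62 of 100 cells of the first and 4 of 31 of the last. Ifitm1 stood at 895, 586, 508, 426 and 163 CPM. The summed stem and multipotent list stood at 4695, 3808, 2981, 2874 and 1981 CPM. The 3 values were lower in every further class, below the limit of 3 Dntt UMIs as well as above it.

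Clec12a and Xrcc6 had the opposite order. Clec12a stood at 3.91, 11.9, 24.1, 56.0 and 117 CPM and was detected in 2 of 100 cells with no Dntt and 14 of 31 cells with 10 or more. Xrcc6 stood at 39.1, 52.8, 93.7, 108 and 140 CPM. Bfsp2 was detected in 4 of 100 cells of the first class and 14 of 31 of the last.

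Ccr9, Gria2, Cd74 and Wfdc18 were highest at intermediate Dntt counts. Ccr9 stood at 25.4, 49.4, 112, 70.9 and 30.2 CPM and was detected in 4, 15, 15, 7 and 4 cells of the classes. Gria2 stood at 104 CPM in cells with 3 to 5 Dntt UMIs and 52.3 CPM with 6 to 9, and had no UMI in the 31 cells with 10 or more, which allows a share of cells with a Gria2 UMI of up to 9.68% (exact interval up to 11.2%). Cd74 stood at 107, 118, 254, 250 and 15.1 CPM, the last from 4 UMIs in 4 cells. Wfdc18 stood at 126 and 160 CPM in the middle classes and 60.5 CPM in the last. The 93 cells with 3 to 9 Dntt UMIs carried most of the Gria2 and Cd74 counts, and the 31 cells with 10 or more carried the higher Clec12a level. However, the top 5 Dntt-high cells for each gene held 43.5% of the Ccr9, 52.8% of the Gria2 and 62.7% of the Cd74 UMIs. The class levels of these genes thus rest in part on few cells.

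With cells thinned to 3000 UMIs and classed anew by Dntt (0, 1, 2 to 3, and 4 or more UMIs, in 124, 63, 53 and 50 cells), the shapes were similar but less sharp. Cd74 stood at 96.8, 132, 308 and 86.7 CPM, and the interval of the third class (228 to 407) did not overlap that of the last (46.2 to 148). These intervals cover counting error only and do not measure the spread between cells. Ccr9 stood at 107 CPM in the third class and 40.0 CPM in the last, and Gria2 at the same 2 levels, with intervals of 62.3 to 171 and 14.7 to 87.1 for each, which overlapped. Hlf stood at 188, 185, 62.9 and 53.3 CPM. Ifitm1 stood at 774, 635, 503 and 207 CPM. In these classes, whose limits and cells differ from the raw ones, Hlf was close in the first 2 and in the last 2 classes, while Ifitm1 was lower in each further class.

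**Figure D5:**
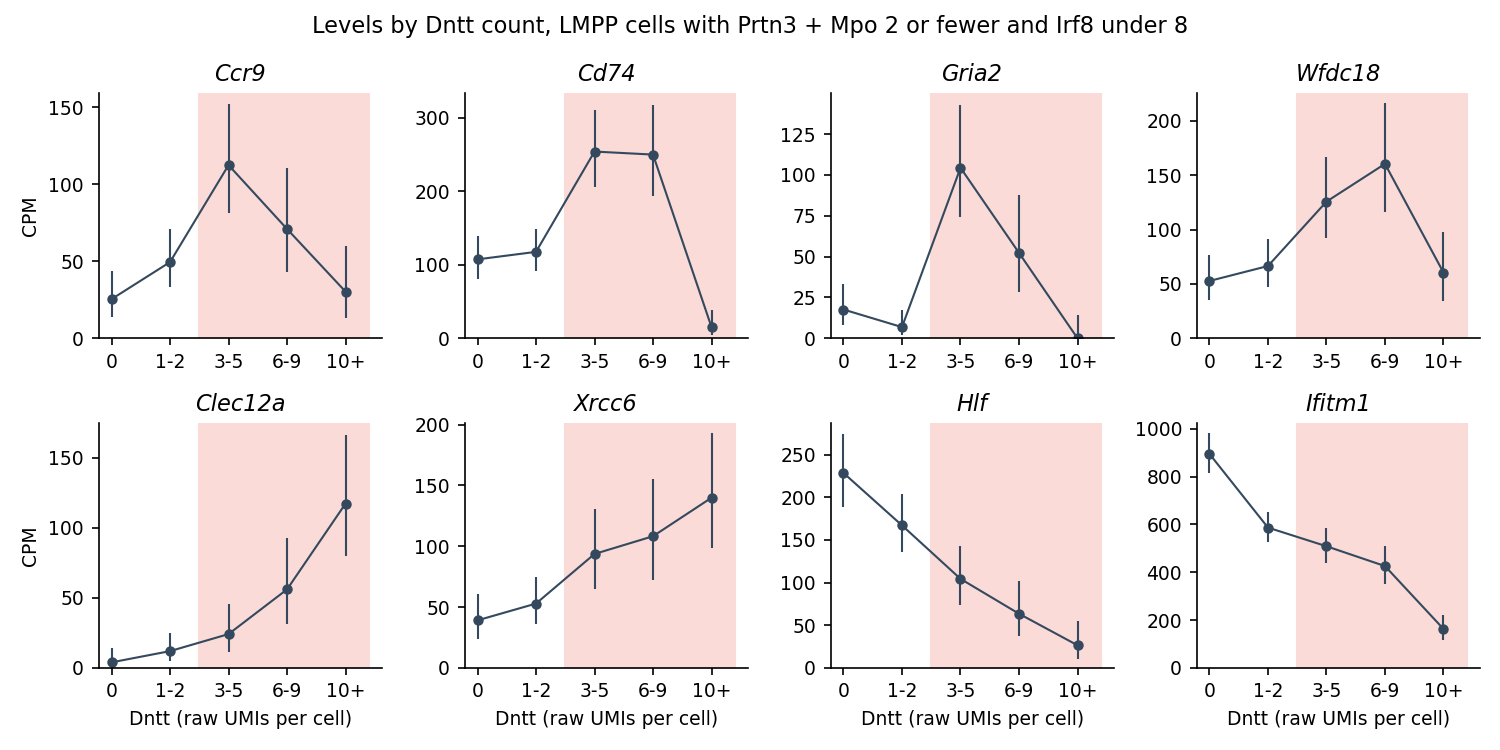
Levels of 8 genes in CPM (y axes, each from 0) by raw Dntt UMIs per cell (x axes) in LMPP cells with 2 or fewer Prtn3 and Mpo and under 8 Irf8 UMIs; points are summed levels of 100, 98, 55, 38 and 31 cells, bars exact Poisson 95% intervals, and the shaded classes are the Dntt-high cells. Ccr9, Cd74, Gria2 and Wfdc18 peak at 3 to 9 Dntt UMIs, Clec12a and Xrcc6 are highest at 10 or more, and Hlf and Ifitm1 are lower in each further class.

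The 56 LMPP cells that had 3 or more Dntt UMIs but also 3 or more of Prtn3 and Mpo shared part of the pattern. Their median depth was 8243 UMIs. Hlf stood at 67.4 CPM (69.5 CPM in Dntt-high cells), Mecom at 33.7 CPM (35.3 CPM), and Il12a and Notch1 at 213 and 122 CPM, near the Dntt-high levels of 283 and 135 CPM. In contrast Ccr9 stood at 29.5 CPM, Gria2 at 12.6 CPM, Wfdc18 at 27.4 CPM and Cd74 at 16.8 CPM. All were below the Dntt-high levels of 76.2, 58.5, 117 and 183 CPM with no overlap of intervals. These intervals cover counting error only. In Dntt-high cells the top 5 cells for each gene held 43.5%, 52.8%, 31.1% and 62.7% of its UMIs, in the same order. The 187 Prtn3 or Mpo cells with fewer Dntt UMIs stood at 139 CPM for Hlf and 103 CPM for Mecom. Low Hlf and Mecom levels thus went with Dntt in cells on both sides of the Prtn3 and Mpo limit.

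Clusters of the LMPP cells made without the 4 genes of the rule placed the Dntt-high cells unevenly. One cluster of 101 cells, led by Ccr9, Tmem108, Bfsp2, Ccl5, Gria2 and Cd74, held 60 of them, which is 59.4% of that cluster and 48.4% of the Dntt-high cells. A cluster of 240 cells with Hlf among its leading genes held 19, or 7.92%. The clusters led by S phase genes (172 cells) and by mitotic genes (38 cells) held 25 and 11, and the cluster of 28 cells led by Ly6d held 9. The leading genes were read from the same cells that made the clusters, so they are a description and support no separate result.

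Across 545 thinned LMPP cells and 1482 genes detected in at least 20% of them, the genes most like Dntt by Spearman correlation were Plac8 (0.35), H2afy (0.25), Il12a (0.25), Tcf4 (0.20) and Tmsb4x (0.19). The lowest were Ifitm1 (-0.26), Prtn3 (-0.25) and Lmo2 (-0.22). The points share 1 library, and these values are weak and serve as a description. Plac8, a small cysteine-rich protein of haematopoietic progenitors, stood at 1811 CPM in Dntt-high cells against 1420 CPM in paired other LMPP and 931 CPM in paired Dntt-low cells. H2afy, which encodes the histone variant macroH2A1, stood at 3351 CPM against 2690 and 2401 CPM. Tcf4, an E protein, stood at 192 CPM against 117 and 100 CPM, with 212 CPM in CLP.

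Pairs of genes were compared in thinned Dntt-high cells to see whether they marked the same cells. Ccr9 and Gria2 were each detected in 15 of 122 cells and together in 3, where the product of the single shares gives 1.84 cells. Ccr9 and Cd74 were detected together in 6 cells against 2.58. Ccr9 and Satb1 were detected together in 2 cells against 6.27, and Hlf and Mecom in 3 against 1.09. The counts are small, and thinning lowered the number of Dntt-high cells with a UMI, for example from 26 to 15 for Ccr9.

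In the CLP library 705 of 948 cells met the same rule, with a median of 6323 UMIs. Those cells stood at 43.2 CPM for Ccr9, 154 CPM for Notch1 and 276 CPM for Satb1, against 76.2, 135 and 170 CPM in the Dntt-high LMPP. Cells chosen by the same Dntt, Prtn3, Mpo and Irf8 limits differed between the libraries in Hlf (6.23 CPM in CLP against 69.5 CPM), Wfdc18 (9.35 against 117 CPM) and Myl10 (405 against 83.9 CPM). Cd34, a surface protein of progenitors, stood at 201 CPM against 468 CPM. The gate and the droplet run both separate these libraries and cannot be told apart.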

How the data were processed

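Single-cell libraries of sorted LMPP, CLP and pro-B cells, 1 per population, were made with 10x Chromium chemistry, per the labels. The authors deposited raw counts, 1 matrix of UMIs by gene and cell barcode for each library. Cell Ranger and the mm10 build are named in the submitters' processing notes, and the sources used here do not give the version or the annotation. Of 599, 979 and 1123 deposited barcodes, 20, 31 and 16 were left out for over 10% mitochondrial UMIs and 0, 0 and 1 for under 500 genes. The cultured cells that the labels describe and immunoglobulin genes were not analysed here.

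UMIs were summed per set and divided by the set's total to give CPM. A gene counted as different at 2-fold or more and 50 CPM or more (45.3 UMIs) in the higher set. A set without a UMI was set to 3 UMIs. Cells were thinned without replacement to 3000 UMIs, leaving out 2 of the Dntt-high cells. Clusters used 2000 variable genes, 20 components, 15 neighbours and Leiden resolution 0.5 (scanpy 1.11.5, leidenalg 0.10.2), and doublets were called with scrublet at an expected rate of 1%. Intervals came from SciPy 1.17.1. The code was tested on simulated data. Gene positions are from GENCODE M21 (GRCm38, the mm10 assembly).

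The Dntt-high cells and the gene lists were chosen with earlier results of these data known. Named genes were the 12 highest and 12 lowest ratios of each comparison (50 CPM or more, named genes only), the markers, sort genes, early lymphoid and B regulator lists and the 4 most abundant genes of every other list. Sstr2, Xrcc6, Sik1, Procr, Cebpa, Siglech and genes named only as passing 2-fold in a list or leading a cluster were named after their values were seen. Alternatives changed the pairing, depth, total, filters, doublets, limits and cell cycle state. There was no replicate and hence no test.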

Additional observations from a re-analysis of the deposited data

How the results depend on the processing

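Against paired other LMPP the main counts were 29 genes higher and 15 lower, and against paired Dntt-low cells 34 and 21. They differed by over 1.5 times, in at least 1 direction, under these settings, given as higher and lower against other LMPP and then against Dntt-low: thinning to 3000 UMIs, 38 and 37, then 49 and 69; cells with 5 or more Dntt UMIs, 47 and 29, then 50 and 40; a minimum of 20 CPM, 119 and 135, then 114 and 156; a minimum of 100 CPM, 8 and 4, then 9 and 6; and cells with few cell cycle UMIs, 71 and 64, then 69 and 80. All 198 Dntt-low cells without pairing gave 21 higher and 22 lower, and pairs within 10% of each other's UMIs gave 37 higher and 32 lower. The share of calls that were higher was 65.9% and 61.8% in the main comparisons, against 50.7% and 41.5% after thinning, 46.9% and 42.2% at 20 CPM, and 52.6% and 46.3% with few cycle UMIs. Thinning, the higher Dntt limit and the few-cycle setting sum fewer UMIs, and the thinned cells were not paired. The cause of the larger counts was not tested. Ly6d against other LMPP, at -2.02, reversed to 3.17 with few cycle UMIs and to 2.58 without its cluster. Of the other gene values under up to 14 alternatives, 1690 and 1706 moved by less than the counting interval and 57 and 43 by more, against other LMPP and Dntt-low cells. The alternatives on pairs within 10%, Ebf1 cells, the Ly6d cluster and shared barcodes were chosen after seeing the data. The median of the stem and multipotent list stayed between -0.86 and -0.55 against other LMPP, and that of the early lymphoid list between 0.26 and 0.65. No paired analysis was possible because each population has 1 library. At 50 CPM a gene rests on 45.3 UMIs, so genes near the 2-fold limit are not separated from it at this depth.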
